A study of Arabidopsis with 12 samples.

Results

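Transcripts of the plastid genome were followed in Arabidopsis seedlings that carry the flu mutation, with and without a mutation in the chloroplast import receptor TOC33. The members are all loci of the deposited table whose identifier begins with ATCG, with transcripts summed per locus, that reached 1 TPM or more in at least 3 of the 12 libraries. Of 88 such loci 86 passed, out of 19667 genes that passed the same filter and 27655 genes in the table. They fall into photosystem II (15 loci), photosystem I with its assembly factors (7), the cytochrome b6f complex (6), ATP synthase (6), the NAD(P)H dehydrogenase-like complex NDH (12), the ribosome (26), RNA polymerase (4) and other plastid proteins (10). The 2 loci left out are the copies of ycf2 (ATCG00860 and ATCG01280), at 0.257 to 0.625 TPM, while ccsA (ATCG01040), with 0.216 to 2.00 TPM, and ycf1.2 (ATCG01130), with 0.665 to 2.09 TPM, stood just inside. The table gives plastid loci without gene names, so names are those of the TAIR nomenclature, and the 83 names that could be set beside the order of plastid genes in RefSeq ran in the same order with 0 disagreements. In the inverted repeat 7 pairs of loci, the left-out ycf2 copies among them, had equal values in all libraries. With each remaining pair counted once, the 86 members are 80 loci with different values.

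There were 4 groups of 3 libraries each. Seedlings of 7 d by the sample labels, grown in continuous light, were flu toc33-1 double mutants or flu single mutants. The double mutant is called flu toc33 here. Each genotype spent 4 h in the dark, with or without 1 h of light after it, which gives the groups flu toc33 light, flu toc33 dark, flu light and flu dark. All 4 groups carry flu. FLU normally restrains chlorophyll synthesis at night, and without it the precursor protochlorophyllide accumulates. When light returns, that pigment makes the plastid produce singlet oxygen. TOC33 is a receptor GTPase of the outer envelope through which many precursor proteins of photosynthesis enter the chloroplast, and the title of the series names it as a relay of the singlet oxygen signal to the nucleus. No wild type was analysed here, and the lit groups were sampled 1 h after the dark groups, so light, singlet oxygen and time cannot be told apart. Light effect means lit minus dark. The design text gives an age 1 d lower. Titles name seedlings as the material, whereas the tissue label is leaf.

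The plastid genome encodes core subunits of the thylakoid complexes, part of the plastid ribosome and the core of a bacterial-type RNA polymerase called PEP, while most subunits of the same complexes are nuclear and are imported. PEP needs nuclear sigma factors and associated proteins and is known as the main polymerase of photosynthesis genes. A nuclear-encoded phage-type polymerase, NEP, reads the rpoB operon and some housekeeping genes, and many plastid genes have promoters of both kinds. Most plastid genes are transcribed in clusters, and their RNAs are cut, spliced, edited and protected by imported nuclear proteins. Plastid mRNAs mostly lack a stable poly(A) tail. Not given in the sources used here is whether RNA was selected by its tail. The part of RNA selection in the TPM levels, ranks and changes of the plastid members was not tested.

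Values are TPM, which give a transcript's length-corrected share of its library's RNA. They are not amounts per cell, and in whole seedlings fewer green cells and less plastid RNA per cell cannot be told apart. TPM carries no read number, so no counting error can be given. Across genes, log2 values of replicates had correlations of 0.992 to 0.996. Nothing in the labels states that the libraries of a group came from separate cultures, and the p-values may therefore measure technical spread alone. The targeted gene TOC33 (AT1G02280) had 3.97 ± 0.271 TPM in flu toc33 light and 48.7 ± 0.631 TPM in flu toc33 dark, against 172 ± 2.71 TPM in flu light and 203 ± 11.1 TPM in flu dark (SD, n = 3). The 4 leaf mesophyll markers summed to 25513 to 26231 TPM in flu toc33 light and 28760 to 29861 TPM in flu toc33 dark. They summed to 34869 to 37645 TPM in flu light and 37030 to 41266 TPM in flu dark, and all were present. Of these, CAB1 averaged 4871 and 7737 TPM in flu toc33 light and dark, against 14009 and 15851 TPM in flu light and dark. RCA ran the other way, with 5333 and 4650 TPM in flu toc33 light and dark against 4257 and 4073 TPM in flu light and dark. The 6 root markers summed to 1345 to 1375, 1530 to 1575, 802 to 848 and 1155 to 1353 TPM in the same order of groups. Of that sum PYK10 alone averaged 1347, 1543, 816 and 1263 TPM. The iron transporter IRT1 among them was below 1 TPM in every library. The 4 guard cell, epidermis and vascular markers summed to 151 to 159, 182 to 189, 156 to 163 and 144 to 168 TPM. The part of these markers in the plastid results was not tested. Flu dark replicate 3 and flu light replicate 3 stood apart for the plastid loci. The median deviation of the members from their means over all libraries was -0.17 log2 units in the first, the lowest of the flu libraries, and 0.31 in the second, the highest. For many results that rest on these libraries, values without them are given below.

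Plastid loci together held a smaller share of the RNA in the double mutant. In a library they made up 0.349% to 0.544% of all TPM. Their summed level was 3615, 3534 and 4228 TPM in flu toc33 light and 3881, 3895 and 3487 TPM in flu toc33 dark, against 5130.1, 4486 and 5437 TPM in flu light and 4652, 5087 and 4144 TPM in flu dark. Every flu toc33 library lay below the flu libraries of its treatment, and the lit and dark libraries of each genotype overlapped. Photosystem II made up 28.8 ± 1.11% of the plastid sum in flu toc33 light and 25.1 ± 1.09% in flu toc33 dark, against 32.5 ± 1.31% in flu light and 37.7 ± 1.52% in flu dark (SD, n = 3). RNA polymerase loci made up 0.944 ± 0.146% and 1.21 ± 0.0708% in flu toc33 light and flu toc33 dark, against 0.504 ± 0.0359% and 0.406 ± 0.071% in flu light and flu dark. Both shares differed between the genotypes, in opposite directions, and the libraries of a treatment did not overlap in either. The mitochondrial loci summed to 214 to 252 TPM in flu toc33 light and 183 to 194 TPM in flu toc33 dark, against 257 to 271 TPM in flu light and 276 to 324 TPM in flu dark.

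**Figure D1:**
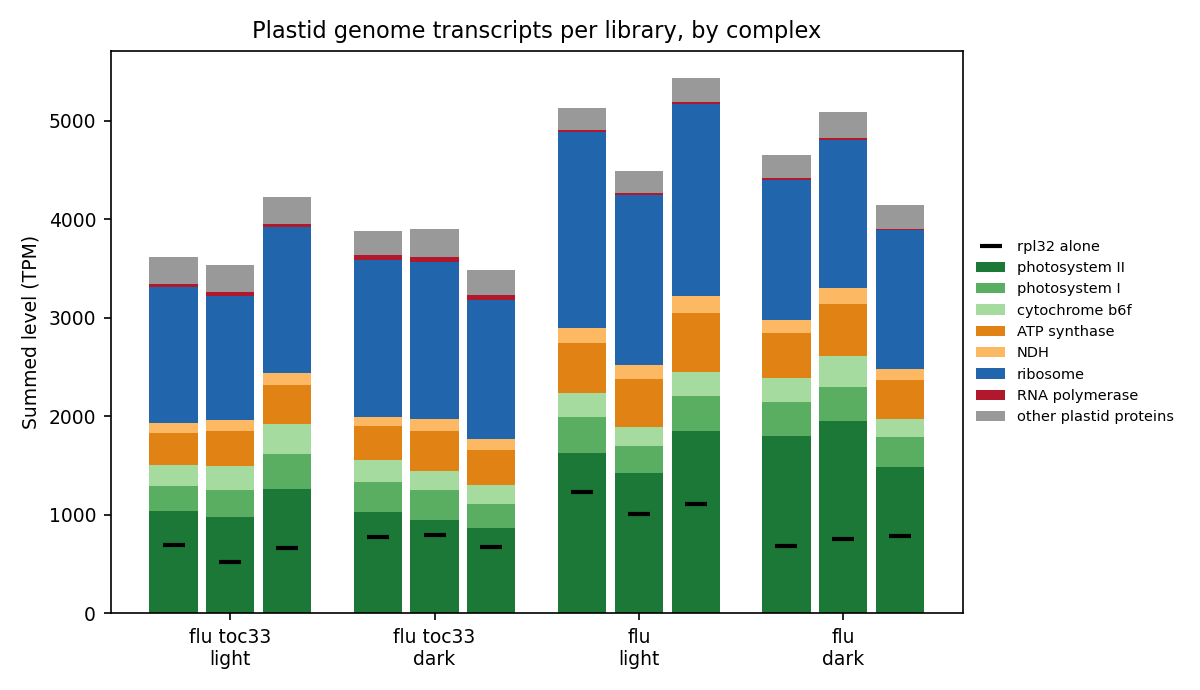
Summed level in TPM of the plastid loci in each of the 12 libraries, stacked by complex, with a black bar for rpl32 alone. The 3 flu toc33 dark libraries lie between 3487 and 3895 TPM and the 3 flu dark libraries between 4144 and 5087 TPM. The thin red band of RNA polymerase is thicker in flu toc33.

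By TPM a single ribosomal protein transcript, rpl32 (ATCG01020), was the most abundant member in every group. It had 689.9, 514 and 659 TPM in flu toc33 light and 778, 794 and 676 TPM in flu toc33 dark. rpl32 levels in flu were 1234, 1005 and 1104 TPM in flu light and 682, 756 and 782 TPM in flu dark. Flu light stood above the other 3 groups, which lay close together, and rpl32 alone took 14.6% to 24.0% of the plastid sum in a library. Next came the small photosystem II subunits psbK and psbZ, the ATP synthase ring subunit atpH and the D1 reaction centre protein psbA. Their order differed between groups. In flu toc33 the Rubisco large subunit rbcL stood among them. At the low end stood accD, ycf1.2, ycf1.1 and ccsA among the other proteins and ndhF and rpoC2 among the complexes, at a few TPM or less.

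The comparison of genotypes in the dark asks what the TOC33 mutation changes before light returns. The members split by complex. Of 15 photosystem II loci 12 fell and 0 rose, of 6 ATP synthase loci 5 fell and 0 rose, and all 4 RNA polymerase loci rose. Ribosomal loci went both ways, with 9 higher and 5 lower of 26, and 9 of the 12 NDH loci were not called. In all, 18 members were higher and 32 lower in flu toc33 dark than in flu dark (limma, 4 group means on log2(TPM + 1), Benjamini-Hochberg adjusted p under 0.05), beside 20.9% of all genes tested called higher and 20.5% called lower, 41.4% together. The median log2 change was -0.09 over the members and 0.01 over all genes. Set relative to the median plastid member of each library, the split became 24 higher and 27 lower. The median is taken from the members themselves, which draws their split towards an even one by construction. A near-even split under it is therefore no separate result, here and below. That centring moved the median of all genes to 0.15 in this comparison, 0.29 in the light and -0.16 for the light effect in flu.

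In the light, where the libraries are separate from those of the dark comparison, 13 members were higher and 31 lower in flu toc33 light than in flu light, beside 39% and 27.9% of all genes, 66.8% together. The median log2 change was -0.21 over the members and 0.08 over all genes. Relative to the median plastid member the split was 23 higher and 24 lower. Of the 86 members, 11 were called higher in both treatments and 23 lower in both, and 0 were called in opposite directions. Of all genes tested 10.5% were higher in both and 8.74% lower in both, and 5.51% and 6.69% were called in opposite directions. ATP synthase fell in 6 of 6 loci in the light and photosystem II in 5 of 15, and RNA polymerase rose in 1 of 4. Relative to the median plastid member these counts were 5 of 6, 5 of 15 and 3 of 4. Of the 26 ribosomal loci 6 were higher and 11 lower in the light, and 10 and 8 relative to the median plastid member. Both loci of rpl2, rpl23 and rps7 and both rps12B and rps12C are among the 11, and the loci of each pair have equal values. The 11 are therefore fewer genes. With each pair of equal loci counted once, 12 members were higher and 27 lower in the light, and 17 higher and 30 lower in the dark. The medians of photosystem II and ATP synthase were below 0 and that of RNA polymerase above 0 in both treatments under all 4 scalings tried. The medians of NDH, photosystem I, cytochrome b6f and the other proteins changed sign with the scaling in at least 1 treatment, and that of the ribosome did in the light.

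**Figure D2:**
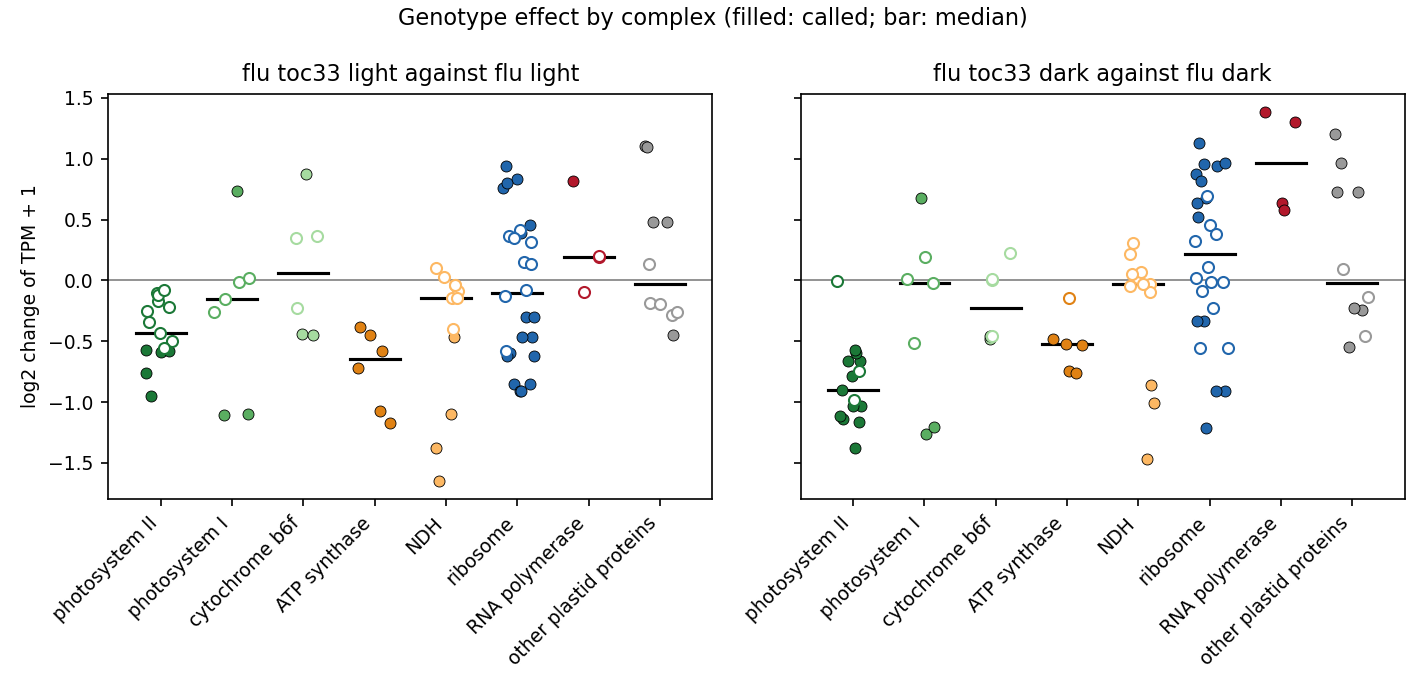
Difference of flu toc33 and flu in log2(TPM + 1) for each of the 86 members, by complex, in the light (left) and in the dark (right). Filled points were called by limma, and bars are medians. In the dark photosystem II sits at a median of -0.90 and RNA polymerase at 0.97; in the light they sit at -0.43 and 0.19.

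RNA polymerase transcripts were higher in the double mutant in the dark. The 4 genes encode the PEP core: rpoB, rpoC1 and rpoC2 its large subunits from a shared operon, and rpoA the alpha subunit from the ribosomal protein cluster. rpoB (ATCG00190) had 18.9, 22.7 and 21.3 TPM in flu toc33 light and 25.5, 25.8 and 25.9 TPM in flu toc33 dark. rpoB levels in flu were 11.3, 11.2 and 11.8 TPM in flu light and 10.6, 9.88 and 7.47 TPM in flu dark. All flu toc33 libraries lay above all flu libraries, by 1.38 ± 0.10 (SE; limma, adjusted p = 1.42e-07) in the dark and 0.82 ± 0.10 (SE; limma, adjusted p = 6.36e-06) in the light on the log2 scale. Without flu dark replicate 3 the dark value was 1.25, adjusted p = 1.57e-08.

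rpoC1 (ATCG00180), the beta-prime subunit, had 5.75, 7.00 and 6.37 TPM in flu toc33 light and 9.42, 9.17 and 9.52 TPM in flu toc33 dark. rpoC1 levels in flu were 5.59, 5.08 and 5.59 TPM in flu light and 4.12, 4.23 and 1.80 TPM in flu dark. Flu toc33 dark was highest, flu dark lowest, and flu dark replicate 3 far below its fellows. The change in the dark was 1.30 ± 0.18 (SE; limma, adjusted p = 6.43e-05), and 1.00, adjusted p = 4.62e-07 without that library. In the light it was 0.20 ± 0.18 (SE; limma, adjusted p = 0.349), which did not pass. rpoC2 (ATCG00170), the beta-double-prime subunit, averaged 2.05 ± 0.333 TPM in flu toc33 light, 2.65 ± 0.146 TPM in flu toc33 dark, 1.67 ± 0.174 TPM in flu light and 1.38 ± 0.404 TPM in flu dark (SD, n = 3). It rose in the dark by 0.63 ± 0.13 (SE; limma, adjusted p = 0.00122). rpoA (ATCG00740) had 5.72, 7.06 and 5.66 TPM in flu toc33 light and 7.68, 7.85 and 7.13 TPM in flu toc33 dark. rpoA levels in flu were 5.73, 6.38 and 7.90 TPM in flu light and 5.90, 4.83 and 3.67 TPM in flu dark. It was higher in flu toc33 dark than in flu dark in every library, by 0.58 ± 0.14 (SE; limma, adjusted p = 0.00404), while the lit groups overlapped.

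Photosystem II, which splits water, fell in 12 of 15 loci in the dark. psbA (ATCG00020), the D1 protein, had 135, 139.6 and 135 TPM in flu toc33 light and 122, 151 and 129 TPM in flu toc33 dark. psbA levels in flu were 226, 230.2 and 239.5 TPM in flu light and 276, 314 and 296 TPM in flu dark. The genotypes did not overlap, with changes of -1.14 ± 0.07 (SE; limma, adjusted p = 2.02e-08) in the dark and -0.76 ± 0.07 (SE; limma, adjusted p = 2.25e-07) in the light. In the dark the flu toc33 mean was 45.4% of the flu mean, and in the light 58.8%. psbK (ATCG00070), a small subunit, had 218, 215 and 211 TPM in flu toc33 light and 118, 176 and 139.9 TPM in flu toc33 dark. psbK levels in flu were 363, 389.8 and 507 TPM in flu light and 419.9, 398 and 307 TPM in flu dark. It changed by -1.37 ± 0.15 (SE; limma, adjusted p = 6.44e-06) in the dark, the largest fall of the complex, and by -0.95 ± 0.15 (SE; limma, adjusted p = 6.38e-05) in the light.

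psbD (ATCG00270) encodes the D2 protein and psbC (ATCG00280) the inner antenna CP43, and the 2 genes overlap. psbD had 23.2, 26.1 and 25.4 TPM in flu toc33 light and 20.1, 21.7 and 20.4 TPM in flu toc33 dark. psbD levels in flu were 35.1, 34.9 and 42.7 TPM in flu light and 33.6, 36.6 and 30.3 TPM in flu dark. Its flu toc33 libraries lay below all flu libraries, with changes of -0.67 ± 0.08 (SE; limma, adjusted p = 2.48e-05) in the dark and -0.57 ± 0.08 (SE; limma, adjusted p = 3.55e-05) in the light. psbC had 34.2, 33.5 and 30.5 TPM in flu toc33 light and 23.9, 27.1 and 24.4 TPM in flu toc33 dark. psbC levels in flu were 35.8, 32.4 and 43.2 TPM in flu light and 41.4, 47.5 and 33.3 TPM in flu dark. It fell, with a change of -0.66 ± 0.12 (SE; limma, adjusted p = 0.00047) in the dark, while in the light the groups overlapped and the change was -0.17 ± 0.12 (SE; limma, adjusted p = 0.219). The other inner antenna, CP47, is encoded by psbB (ATCG00680), which fell in both treatments, with changes of -0.90 and -0.59 on the log2 scale in the dark and the light (limma, adjusted p = 1.71e-07 and 2.92e-06).

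Several small subunits differed widely between replicates. psbT (ATCG00690) had 43.6, 36.7 and 64.5 TPM in flu toc33 light and 33.1, 17.0 and 26.1 TPM in flu toc33 dark. psbT levels in flu were 51.3, 37.6 and 69.5 TPM in flu light and 65.8, 63.5 and 32.04 TPM in flu dark. In the dark flu dark replicate 3 stood inside the flu toc33 dark range. The change of -1.03 ± 0.30 (SE; limma, adjusted p = 0.0152) did not pass without flu dark replicate 1 (adjusted p = 0.0579), flu dark replicate 2 (adjusted p = 0.0564) or flu toc33 dark replicate 2 (adjusted p = 0.0733). psbN (ATCG00700), on the strand opposite psbT and psbH, had 20.1, 16.9 and 25.7 TPM in flu toc33 light and 19.8, 14.3 and 13.6 TPM in flu toc33 dark. psbN levels in flu were 31.2, 16.3 and 20.3 TPM in flu light and 41.9, 32.3 and 31.9 TPM in flu dark. Flu dark stood above the other groups, and the change in the dark was -1.11 ± 0.21 (SE; limma, adjusted p = 0.000806). No source used here states whether counting used the strand, so reads of psbN and of its antisense partners cannot be told apart. psbH, psbI, psbE, psbL and psbZ also fell in the dark, by 0.57 to 1.16 on the log2 scale (psbE -0.57, psbL -1.16), and psbJ, psbF and psbM were not called. Leaving out 1 library lost the psbE, psbI and psbZ calls in 4 cases each and the psbL call in 3. They were psbE without flu dark replicates 1 and 2 and flu toc33 dark replicates 1 and 3 (adjusted p from 0.0807 to 0.137), and psbZ without the same libraries (0.0647 to 0.128). psbI lost its call without flu dark replicates 1 and 3 and flu toc33 dark replicates 2 and 3 (0.0548 to 0.115), and psbL without replicate 2 of flu dark and replicates 2 and 3 of flu toc33 dark (0.0655 to 0.0766). Among the 13 members shorter than 150 bases in RefSeq the median SD of log2 values between replicates was 0.524, against 0.189 for the 68 longer members with a length, and 30.8% against 60.3% were called in the dark. The 3 rps12 loci, whose RefSeq length covers a part of the gene, are left out of both. With them among the short members the median SD was 0.48 and the share called 43.8% of 16.

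In photosystem I the 2 reaction centre subunits fell and the other loci either did not pass or rose. psaA (ATCG00350) had 13.7, 15.1 and 14.2 TPM in flu toc33 light and 13.2, 13.9 and 13.3 TPM in flu toc33 dark. psaA levels in flu were 29.7, 30.5 and 35.7 TPM in flu light and 33.3, 36.6 and 27.3 TPM in flu dark. The genotypes did not overlap, with changes of -1.20 ± 0.09 (SE; limma, adjusted p = 3.15e-07) in the dark and -1.10 ± 0.09 (SE; limma, adjusted p = 1.64e-07) in the light. psaB (ATCG00340) had 13.2, 13.9 and 14.2 TPM in flu toc33 light and 12.05, 15.03 and 12.3 TPM in flu toc33 dark. psaB levels in flu were 29.2, 29.7 and 32.9 TPM in flu light and 34.6, 35.4 and 28.5 TPM in flu dark. Again every flu toc33 library lay below every flu library, with changes of -1.26 and -1.09 in the dark and the light (limma, adjusted p = 1.66e-07 and 1.46e-07).

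psaC (ATCG01060), which carries the terminal iron-sulfur clusters and lies in the ndhD cluster, had 73.2, 83.1 and 67.9 TPM in flu toc33 light and 62.6, 105 and 71.7 TPM in flu toc33 dark. psaC levels in flu were 79.1, 66.5 and 74.9 TPM in flu light and 90.5, 81.4 and 67.4 TPM in flu dark. Its groups overlapped, with a change of -0.02 ± 0.16 (SE; limma, adjusted p = 0.918) in the dark. psaJ (ATCG00630), a small peripheral subunit, had 64.6, 59.2 and 97.2 TPM in flu toc33 light and 101, 64.6 and 48.2 TPM in flu toc33 dark. psaJ levels in flu were 102, 60.3 and 106 TPM in flu light and 99.4, 101 and 92.6 TPM in flu dark. There was overlap in both treatments and a change of -0.51 ± 0.25 (SE; limma, adjusted p = 0.123) in the dark. ycf3 (ATCG00360), an assembly factor of photosystem I and no subunit of it, was higher in flu toc33 in both treatments, by 0.68 in the dark and 0.73 in the light on the log2 scale (limma, adjusted p = 0.000443 and 9.76e-05).

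The cytochrome b6f complex, which links the photosystems, showed falls in petB, the cytochrome b6 gene, and petD, the subunit IV gene next to it. petD (ATCG00730) had 35.8, 44.0 and 39.0 TPM in flu toc33 light and 29.6, 36.2 and 39.1 TPM in flu toc33 dark. petD levels in flu were 50.4, 50.8 and 61.7 TPM in flu light and 51.8, 58.7 and 36.3 TPM in flu dark. Its change was -0.45 ± 0.15 (SE; limma, adjusted p = 0.0273) in the dark and -0.44 ± 0.15 (SE; limma, adjusted p = 0.0186) in the light, and flu dark replicate 3, with 36.3 TPM, stood within the flu toc33 dark range. The dark call was lost without flu dark replicate 1 (adjusted p = 0.0794), flu dark replicate 2 (adjusted p = 0.116) or flu toc33 dark replicate 1 (adjusted p = 0.12), and the call in the light without flu light replicate 3 (adjusted p = 0.0831) or flu toc33 light replicate 1 (adjusted p = 0.0719). petB (ATCG00720) fell, with changes of -0.48 and -0.44 in the dark and the light (limma, adjusted p = 0.0121 and 0.0115). Its dark call was lost without flu dark replicate 2 or flu toc33 dark replicate 3 (adjusted p = 0.0518 and 0.0524), and its call in the light without flu light replicate 3 or flu toc33 light replicate 1 (adjusted p = 0.0631 and 0.0552).

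petN (ATCG00210) and petG (ATCG00600) encode very small subunits. petN had 66.7, 53.8 and 91.9 TPM in flu toc33 light and 59.8, 44.2 and 42.2 TPM in flu toc33 dark. petN levels in flu were 63.9, 49.4 and 50.0 TPM in flu light and 54.3, 99.7 and 54.4 TPM in flu dark. These values overlapped in both treatments, and neither genotype comparison passed. petG had 37.8, 48.1 and 70.4 TPM in flu toc33 light and 53.6, 38.8 and 32.7 TPM in flu toc33 dark. petG levels in flu were 36.9, 17.0 and 31.5 TPM in flu light and 38.8, 59.6 and 28.5 TPM in flu dark. In the light flu toc33 stood above flu without overlap, by 0.87 ± 0.31 (SE; limma, adjusted p = 0.0227), the only rise of the complex. The call was lost without flu light replicate 2 (0.55, adjusted p = 0.123) or flu toc33 light replicate 3 (0.64, adjusted p = 0.109).

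ATP synthase fell in 5 of 6 loci in the dark and in all 6 in the light. atpB (ATCG00480), the catalytic beta subunit, had 15.6, 15.5 and 13.3 TPM in flu toc33 light and 15.6, 18.2 and 17.5 TPM in flu toc33 dark. atpB levels in flu were 32.2, 34.0 and 37.3 TPM in flu light and 31.3, 30.3 and 27.4 TPM in flu dark. The genotypes did not overlap, with changes of -0.76 ± 0.08 (SE; limma, adjusted p = 5.22e-06) in the dark and -1.17 ± 0.08 (SE; limma, adjusted p = 1.63e-08) in the light. atpE (ATCG00470), the epsilon subunit that overlaps atpB, followed with -0.75 and -1.07 in the dark and the light (limma, adjusted p = 5.89e-06 and 3.88e-08). From the other cluster, atpF (ATCG00130), a stalk subunit, had 41.9, 43.2 and 44.8 TPM in flu toc33 light and 40.5, 49.4 and 42.1 TPM in flu toc33 dark. atpF levels in flu were 57.9, 66.1 and 71.9 TPM in flu light and 63.6, 69.2 and 53.1 TPM in flu dark. It fell, with a change of -0.48 ± 0.10 (SE; limma, adjusted p = 0.00152) in the dark and -0.58 ± 0.10 (SE; limma, adjusted p = 0.000152) in the light.

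atpH (ATCG00140), the subunit of the membrane ring, had 216, 231 and 287 TPM in flu toc33 light and 228, 277 and 241 TPM in flu toc33 dark. atpH levels in flu were 323, 296 and 382 TPM in flu light and 273, 327 and 231 TPM in flu dark. Its dark groups overlapped, with a change of -0.14 ± 0.13 (SE; limma, adjusted p = 0.406), whereas every flu toc33 light library lay below flu light, with a change of -0.45 ± 0.13 (SE; limma, adjusted p = 0.00806). atpA (ATCG00120), the alpha subunit, fell, with changes of -0.52 and -0.72 in the dark and the light. For atpI (ATCG00150), a membrane subunit, they were -0.53 and -0.38 (limma, adjusted p from 8.1e-06 to 0.00156 over these 4 values).

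NDH, which passes electrons around photosystem I, divided by gene cluster. The 3 genes ndhC, ndhK and ndhJ fell in both treatments. ndhC (ATCG00440) had 3.96, 5.80 and 8.68 TPM in flu toc33 light and 4.89, 7.96 and 5.79 TPM in flu toc33 dark. ndhC levels in flu were 20.7, 17.6 and 23.7 TPM in flu light and 17.9, 27.0 and 13.3 TPM in flu dark. This was the largest fall of all members, -1.47 ± 0.25 (SE; limma, adjusted p = 0.000398) in the dark and -1.65 ± 0.25 (SE; limma, adjusted p = 6.01e-05) in the light, at 32% and 29.7% of the flu means. ndhJ (ATCG00420) had 5.80, 6.01 and 6.68 TPM in flu toc33 light and 5.42, 8.18 and 4.66 TPM in flu toc33 dark. ndhJ levels in flu were 19.1, 14.2 and 20.1 TPM in flu light and 10.5, 14.0 and 14.7 TPM in flu dark. It changed by -1.01 ± 0.17 (SE; limma, adjusted p = 0.000362) in the dark and -1.38 ± 0.17 (SE; limma, adjusted p = 8.04e-06) in the light.

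The remaining NDH genes lie elsewhere and were not called in the dark. ndhE (ATCG01070) had 37.8, 38.9 and 39.2 TPM in flu toc33 light and 31.1, 40.7 and 40.4 TPM in flu toc33 dark. ndhE levels in flu were 39.2, 41.3 and 43.0 TPM in flu light and 33.0, 45.6 and 32.5 TPM in flu dark. The genotypes overlapped, and the change in the dark was 0.02 ± 0.12 (SE; limma, adjusted p = 0.906). ndhG (ATCG01080), from the same cluster, had 13.3, 16.2 and 14.3 TPM in flu toc33 light and 12.3, 16.8 and 17.8 TPM in flu toc33 dark. ndhG levels in flu were 17.3, 14.5 and 17.0 TPM in flu light and 13.8, 16.2 and 8.26 TPM in flu dark. Here too the genotypes overlapped, with 0.31 ± 0.19 (SE; limma, adjusted p = 0.213) in the dark. In the light ndhF (ATCG01010) fell, with 1.49 ± 0.167 TPM in flu toc33 light against 2.45 ± 0.531 TPM in flu light (SD, n = 3), a change of -0.46 ± 0.14 (SE; limma, adjusted p = 0.00986). That call was lost without flu light replicate 3 (adjusted p = 0.054).

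Among ribosomal protein transcripts the rises lay mostly in 1 cluster. It resembles the bacterial S10 and spc operons and runs from rps19 to rpoA, and 7 of its 9 members rose in the dark with 0 lower. rpl16 (ATCG00790) had 78.9, 90.4 and 96.0 TPM in flu toc33 light and 114, 118 and 98.9 TPM in flu toc33 dark. rpl16 levels in flu were 66.6, 62.8 and 71.6 TPM in flu light and 58.6, 60.2 and 49.4 TPM in flu dark. All flu toc33 libraries lay above all flu libraries, by 0.96 ± 0.09 (SE; limma, adjusted p = 1.84e-06) in the dark and 0.39 ± 0.09 (SE; limma, adjusted p = 0.00159) in the light. rpl14 (ATCG00780) had 73.3, 79.9 and 100.5 TPM in flu toc33 light and 109, 109 and 97.6 TPM in flu toc33 dark. rpl14 levels in flu were 54.9, 69.7 and 74.0 TPM in flu light and 53.9, 62.0 and 31.7 TPM in flu dark. It rose in the dark by 1.13 ± 0.20 (SE; limma, adjusted p = 0.000386), or 0.85, adjusted p = 0.000167 without the low flu dark replicate 3, and overlapped in the light.

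rpl22 (ATCG00810) had 32.03, 30.5 and 37.5 TPM in flu toc33 light and 26.6, 33.1 and 31.8 TPM in flu toc33 dark. rpl22 levels in flu were 14.6, 16.2 and 20.2 TPM in flu light and 17.0, 18.3 and 22.5 TPM in flu dark. It did not overlap between genotypes, with 0.64 ± 0.13 (SE; limma, adjusted p = 0.00113) in the dark and 0.94 ± 0.13 (SE; limma, adjusted p = 1.66e-05) in the light. rps3 (ATCG00800) and rps4 (ATCG00380), the second from another locus, rose by 0.81 and 0.94 in the dark and 0.80 and 0.84 in the light (limma, adjusted p from 7.08e-06 to 3.54e-05). The rps18 and rps12A loci rose in the dark as well, by 0.52 and 0.87 on the log2 scale (limma, adjusted p = 0.0244 and 0.0375). The rps18 call was lost without flu dark replicate 3 (0.33, adjusted p = 0.0913) or flu toc33 dark replicate 2 (0.39, adjusted p = 0.11).

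The 5 falls in the dark were rps14, rps12B, rps12C and the copies of rpl2. Equal values in all libraries were held by rps12B and rps12C, and likewise by the copies of rpl2. rps14 (ATCG00330), which shares its transcript with psaA and psaB, had 49.0, 45.7 and 54.5 TPM in flu toc33 light and 43.2, 46.2 and 40.0 TPM in flu toc33 dark. rps14 levels in flu were 91.5, 77.4 and 105 TPM in flu light and 107, 122 and 79.0 TPM in flu dark. It changed by -1.21 ± 0.14 (SE; limma, adjusted p = 1.07e-05) in the dark and -0.86 ± 0.14 (SE; limma, adjusted p = 8.46e-05) in the light. rps12 is assembled from separately transcribed parts, and these were called in opposite directions in the dark. rps12A (ATCG00065), the 5′ part, changed by 0.87 and 0.76 in the dark and the light (limma, adjusted p = 0.0375 and 0.0453). The dark rps12A call was lost without flu dark replicate 1 or 3 or flu toc33 dark replicate 1 (0.90, 0.62 and 0.55, adjusted p = 0.0612, 0.134 and 0.175), and the call in the light in 7 cases (adjusted p from 0.05 to 0.192). rps12B and rps12C (ATCG01230 and ATCG00905), the 3′ part in the inverted repeat, changed by -0.91 and -0.62 in the dark and the light (limma, adjusted p = 1.94e-06 and 1.99e-05). For rpl32 the dark change was 0.02 ± 0.10 (SE; limma, adjusted p = 0.916), which did not pass, and it was lower in flu toc33 light, with a change of -0.85 ± 0.10 (SE; limma, adjusted p = 6.84e-06), without overlap.

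rpl20 (ATCG00660) had 6.07, 11.8 and 6.15 TPM in flu toc33 light and 15.1, 12.6 and 9.73 TPM in flu toc33 dark. rpl20 levels in flu were 13.7, 9.94 and 12.8 TPM in flu light and 8.28, 11.2 and 7.10 TPM in flu dark. Its lit groups overlapped, and the change in the light, -0.60 ± 0.22 (SE; limma, adjusted p = 0.0311), was lost without any of flu light replicates 1 and 3 and flu toc33 light replicates 1 and 3 (adjusted p = 0.104, 0.0818, 0.127 and 0.125). rps15 (ATCG01120), at the end of the ndhD cluster, had 10.3, 7.99 and 9.20 TPM in flu toc33 light and 12.4, 13.7 and 7.05 TPM in flu toc33 dark. rps15 levels in flu were 15.4, 10.6 and 17.0 TPM in flu light and 4.76, 12.5 and 3.82 TPM in flu dark. Flu dark held 2 low libraries and 1 in the range of the other groups, and neither genotype comparison passed.

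Among the other proteins, clpP, matK and the ycf15 copies rose. The ycf15 call in the light was lost without flu light replicate 3 or flu toc33 light replicate 2 (adjusted p = 0.0732 and 0.082). clpP (ATCG00670), the catalytic subunit of the plastid Clp protease, had 54.5, 45.3 and 52.4 TPM in flu toc33 light and 56.9, 62.4 and 57.2 TPM in flu toc33 dark. clpP levels in flu were 24.9, 19.3 and 25.5 TPM in flu light and 24.5, 23.1 and 27.4 TPM in flu dark. The genotypes did not overlap, with 1.20 ± 0.10 (SE; limma, adjusted p = 5.53e-07) in the dark and 1.10 ± 0.10 (SE; limma, adjusted p = 3.16e-07) in the light. matK (ATCG00040), a splicing factor for plastid introns, had 21.7, 20.7 and 22.2 TPM in flu toc33 light and 17.5, 18.7 and 17.7 TPM in flu toc33 dark. matK levels in flu were 9.24, 8.46 and 10.8 TPM in flu light and 9.23, 9.83 and 7.25 TPM in flu dark. It rose by 0.97 ± 0.10 (SE; limma, adjusted p = 4.12e-06) in the dark and 1.11 ± 0.10 (SE; limma, adjusted p = 2.76e-07) in the light, again without overlap.

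rbcL (ATCG00490) had 159, 163 and 159.9 TPM in flu toc33 light and 132, 159 and 142 TPM in flu toc33 dark. rbcL levels in flu were 144, 138 and 157 TPM in flu light and 161, 186 and 164 TPM in flu dark. In the dark it was lower in flu toc33, with a change of -0.24 ± 0.07 (SE; limma, adjusted p = 0.0136), a call lost relative to the median plastid member (adjusted p = 0.451), without flu dark replicate 2 (adjusted p = 0.0606) or without flu toc33 dark replicate 1 (adjusted p = 0.0703). In the light it was 0.13 ± 0.07 (SE; limma, adjusted p = 0.113), and every flu toc33 library stood above flu. accD (ATCG00500), the plastid subunit of acetyl-CoA carboxylase, had 2.12, 2.04 and 1.97 TPM in flu toc33 light and 2.18, 1.60 and 2.01 TPM in flu toc33 dark. accD levels in flu were 2.20, 1.83 and 3.58 TPM in flu light and 2.13, 2.87 and 1.74 TPM in flu dark. The genotypes overlapped in both treatments, with a change of -0.14 ± 0.17 (SE; limma, adjusted p = 0.535) in the dark. cemA (ATCG00530), an envelope protein, fell in both treatments, with changes of -0.22 and -0.45 in the dark and the light (limma, adjusted p = 0.0109 and 2.2e-05). The dark cemA call was lost without flu toc33 dark replicate 3 (adjusted p = 0.0523).

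**Figure D3:**
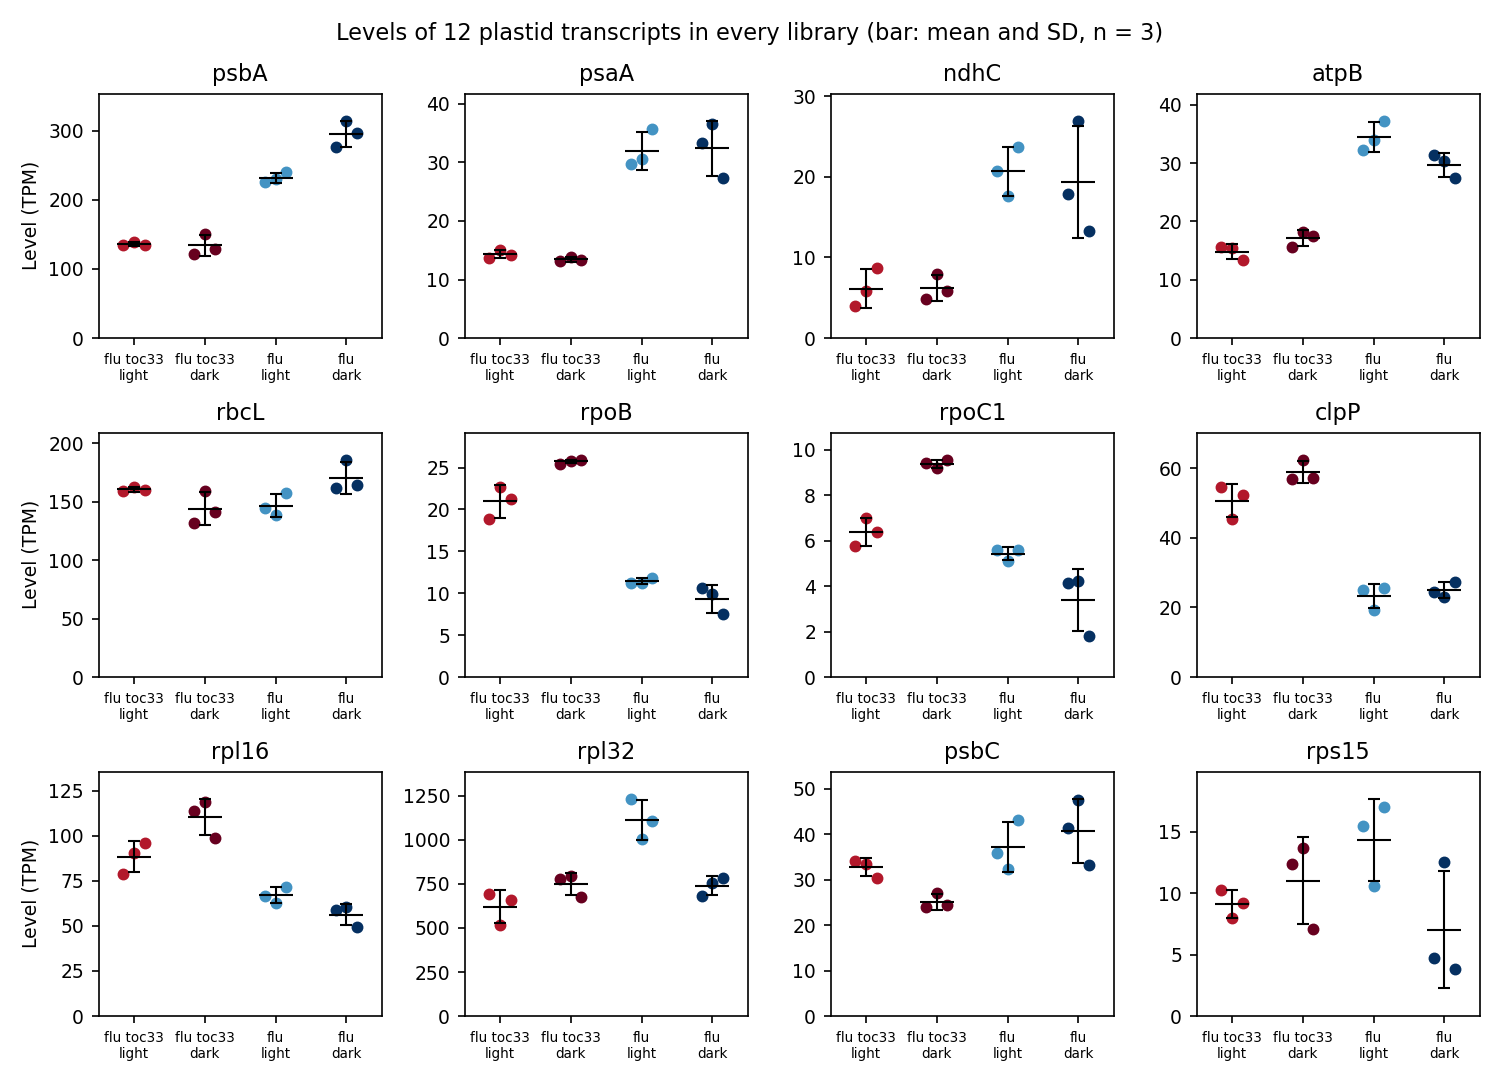
TPM of 12 members in each of the 12 libraries, in flu toc33 light, flu toc33 dark, flu light and flu dark from left to right; bars are the mean and SD of 3 libraries. psbA, psaA, ndhC and atpB lie lower in flu toc33, rpoB, clpP and rpl16 lie higher, and rpoC1 is highest in flu toc33 dark.

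Several sets of neighbours on the plastid genome were called in 1 direction. In the dark all 3 loci of psaA-psaB-rps14, all 3 of psbD-psbC-psbZ, all 5 of psbB-psbT-psbH-petB-petD, all 3 of ndhC-ndhK-ndhJ and both of atpB-atpE were lower, and all 3 of rpoB-rpoC1-rpoC2 were higher. Of all genes 20.5% were called lower and 20.9% higher. In the light psaA-psaB-rps14, ndhC-ndhK-ndhJ and atpB-atpE were again lower at all loci. Of psbB-psbT-psbH-petB-petD 4 of 5 were lower, of psbD-psbC-psbZ 1 of 3, and of rpoB-rpoC1-rpoC2 1 of 3 was higher. Among all genes 27.9% were called lower and 39% higher in the light, and a count of 1 of 3 lies near these shares. In psbE-psbF-psbL-psbJ 2 of 4 were lower in the dark and 0 were called in the light. The cluster from ndhD to rps15 holds 7 NDH and photosystem I loci, and 0 of its 8 loci were called in either genotype comparison under the reported scaling. Relative to the median plastid member 3 of the 8 were higher in the dark and 1 in the light, and after median-ratio scaling 1 was lower in the light. In the rps2-atpI-atpH-atpF-atpA cluster atpI, atpF and atpA fell in the dark, and rps2 and atpH were not called. In the light this cluster was called in both directions, with 4 loci lower and rps2 higher by 0.45 (limma, adjusted p = 0.0358). The rps2 call was lost without flu light replicate 1 or 2 or flu toc33 light replicate 2 or 3 (adjusted p from 0.0616 to 0.191). The median log2 changes of these clusters in the dark ran from -1.21 for psaA-psaB-rps14 to 1.30 for rpoB-rpoC1-rpoC2. Whether neighbours differ less than other members was not tested, and reads of co-transcribed or overlapping genes are not independent. Of the 5 members listed as read by NEP, 3 were higher in the dark, the rpo operon genes, while accD and ycf1.2 were not called. Which polymerase made a transcript was not measured.

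**Figure D4:**
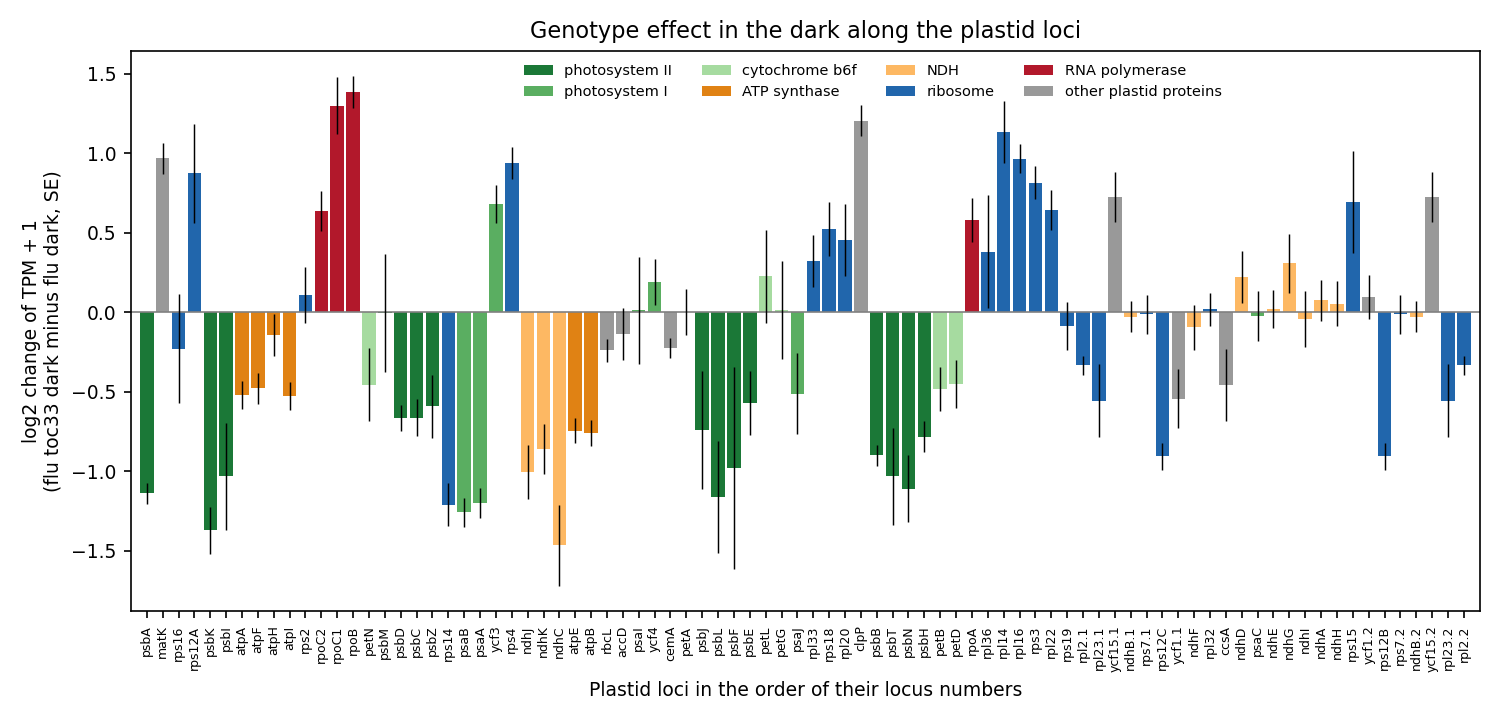
Difference of flu toc33 dark and flu dark in log2(TPM + 1) for 84 members in the order of their locus numbers, coloured by complex; error bars are SE. Neighbouring bars form blocks, such as rps14, psaB and psaA near -1.2 and rpoC1 and rpoB near 1.3.

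Light changed 15 of the 86 members in each genotype. In flu, 12 were higher and 3 lower in flu light than in flu dark, beside 28.2% and 33.4% of all genes tested, 61.6% together. The median log2 change was 0.12 over the members and -0.04 over all genes. The split depends on the scaling and on single libraries. It was 6 higher and 9 lower relative to the median plastid member, 5 and 5 after quantile normalization, 18 and 3 after median-ratio scaling, 12 and 1 without flu light replicate 2, 4 and 3 without flu light replicate 3, 18 and 2 without flu dark replicate 2, 8 and 10 without flu dark replicate 3, and 7 and 11 without the 2 libraries that stood apart. In flu toc33, 8 members were higher and 7 lower in flu toc33 light than in flu toc33 dark, beside 40.4% and 30.6% of all genes, 71% together, with medians of 0.04 over the members and 0.07 over all genes. That split became 5 and 13 relative to the median plastid member, 6 and 11 after quantile normalization and 5 and 12 after median-ratio scaling. It was 9 and 12 without flu dark replicate 3, which enters through the shared spread, and 7 and 4 without flu toc33 dark replicate 1 or 2.

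In flu the rises were led by rps15, rpoC1, rpl32 and ycf1.2. rpl32 rose by 0.59 ± 0.10 (SE; limma, adjusted p = 0.000229), and every flu light library exceeded every flu dark library. rpoC1 rose by 0.61 ± 0.18 (SE; limma, adjusted p = 0.00987), or 0.31, adjusted p = 0.00383 without flu dark replicate 3. rps15 rose by 1.06 ± 0.32 (SE; limma, adjusted p = 0.011), although flu dark replicate 2, with 12.5 TPM, stood within the flu light range, and by 0.65, adjusted p = 0.13 without the 2 libraries that stood apart.

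ycf1.2, assigned to the protein import machinery of the inner envelope, had 1.17, 0.875 and 1.10 TPM in flu toc33 light and 0.827, 0.928 and 0.827 TPM in flu toc33 dark. ycf1.2 levels in flu were 0.976, 1.39 and 2.09 TPM in flu light and 0.746, 0.817 and 0.665 TPM in flu dark. It rose in flu by 0.49 ± 0.14 (SE; limma, adjusted p = 0.00763), or 0.32, adjusted p = 0.0407 without its highest library, flu light replicate 3. Without both libraries that stood apart it was 0.29, adjusted p = 0.0933. rpoB, rpoA, rpl16 and atpB rose by 0.28, 0.41, 0.26 and 0.21 (limma, adjusted p = 0.0249, 0.0183, 0.0241 and 0.0339). None of these 4 passed without flu dark replicate 3 (adjusted p = 0.0777, 0.0743, 0.0952 and 0.105) or without flu light replicate 3 (adjusted p = 0.0733, 0.0923, 0.0973 and 0.145). The rpl16 call was also lost without flu light replicate 1 (adjusted p = 0.0524), and the atpB call without flu light replicate 2 (adjusted p = 0.0623). Without flu dark replicate 3 the rpoB and rpoA changes were 0.14, adjusted p = 0.0777 and 0.26, adjusted p = 0.0743. ndhF, rpl33 and cemA are also among the rises, with 0.43, 0.42 and 0.195 (limma, adjusted p = 0.0159, 0.0388 and 0.015). All of these calls were lost without flu light replicate 3 (adjusted p = 0.0806, 0.143 and 0.055). The ndhF call was also lost without flu dark replicate 3 (adjusted p = 0.0659), and those of rpl33 and cemA in other omissions.

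The 3 falls in flu were psbA, rbcL and psbN. psbA fell, with a change of -0.35 ± 0.07 (SE; limma, adjusted p = 0.000459) with no overlap. rbcL fell, with a change of -0.21 ± 0.07 (SE; limma, adjusted p = 0.0165), a call lost without flu dark replicate 2 (adjusted p = 0.0809) or flu light replicate 2 (adjusted p = 0.0746). psbN fell, with a change of -0.66 ± 0.21 (SE; limma, adjusted p = 0.0142), a call lost without flu dark replicate 1 (adjusted p = 0.06) or flu light replicate 2 (adjusted p = 0.0774).

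In flu toc33 light 5 of 15 photosystem II loci rose and 0 fell, beside 40.4% of all genes called higher and 30.6% lower. The share of rises in photosystem II was thus below that of all genes. psbK rose by 0.59 ± 0.15 (SE; limma, adjusted p = 0.00275), psbC by 0.37 ± 0.12 (SE; limma, adjusted p = 0.0119) and psbD by 0.25 ± 0.08 (SE; limma, adjusted p = 0.0137), each with all lit libraries above all dark ones. The psbD call was lost without flu toc33 light replicate 2 (adjusted p = 0.0538). psbT rose by 0.91 ± 0.30 (SE; limma, adjusted p = 0.0162), a call lost without flu toc33 dark replicate 2 (adjusted p = 0.0821) or flu toc33 light replicate 3 (adjusted p = 0.0807). psbB rose by 0.23 ± 0.07 (SE; limma, adjusted p = 0.00672). Outside photosystem II matK and the rps12B and rps12C loci rose. The change of rps12B and rps12C was 0.22 ± 0.09 (SE; limma, adjusted p = 0.0357). That call was lost without flu toc33 dark replicate 1 (0.23, adjusted p = 0.0558), flu toc33 dark replicate 2 (0.14, adjusted p = 0.168) or flu toc33 light replicate 2 (0.15, adjusted p = 0.158). The matK change of 0.25 ± 0.10 (SE; limma, adjusted p = 0.0376) was lost without any of flu toc33 dark replicates 1 and 3 and flu toc33 light replicates 1 and 3 (adjusted p from 0.0832 to 0.101).

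The falls in flu toc33 were rpoC1, rpoB, rpl16, rpl32, rpl20, atpB and atpE. The change was -0.50 ± 0.18 (SE; limma, adjusted p = 0.0242) for rpoC1, -0.29 ± 0.10 (SE; limma, adjusted p = 0.0187) for rpoB and -0.32 ± 0.09 (SE; limma, adjusted p = 0.00623) for rpl16, with every lit library below every dark one. rpoC1 lost its call without flu toc33 dark replicate 1 or 3 (adjusted p = 0.0543 and 0.0577) or flu toc33 light replicate 1 or 3 (adjusted p = 0.0803 and 0.0527), and rpoB without flu toc33 light replicate 1 (adjusted p = 0.0891). rpl20 fell, with a change of -0.62 ± 0.22 (SE; limma, adjusted p = 0.0235), and lost its call without flu toc33 dark replicate 1 or 2 or flu toc33 light replicate 1 or 3 (adjusted p from 0.0563 to 0.102).

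rpl32 fell in flu toc33, with a change of -0.28 ± 0.10 (SE; limma, adjusted p = 0.0278), a call lost without flu toc33 dark replicate 1 or 2 (adjusted p = 0.0833 and 0.0949) or flu toc33 light replicate 2 (-0.15, adjusted p = 0.153). atpB fell, with a change of -0.20 ± 0.08 (SE; limma, adjusted p = 0.038), a call lost without flu toc33 dark replicate 2 or 3 (adjusted p = 0.139 and 0.102) or flu toc33 light replicate 3 (-0.13, adjusted p = 0.177). atpE fell, with a change of -0.26 ± 0.08 (SE; limma, adjusted p = 0.0104), a call lost without flu toc33 light replicate 3 (adjusted p = 0.0554).

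The test of the interaction, the light effect in flu toc33 minus that in flu, asks whether the light effect differs between the genotypes. The TOC33 transcript itself stood at 3.97 TPM in flu toc33 light and 48.7 TPM in flu toc33 dark, and its part in the interaction was not tested. It called 6 members higher and 15 lower, beside 31.6% and 25.1% of all genes, 56.7% together, with medians of -0.03 over the members and 0.07 over all genes. Relative to the median plastid member the split was 12 higher and 11 lower. It was 11 and 11 without flu dark replicate 3, 8 and 7 without flu light replicate 3, and 16 and 8 without both. The number lower was 9 without flu toc33 dark replicate 1, 10 without flu toc33 dark replicate 2, 8 without flu toc33 light replicate 1 and 10 without flu toc33 light replicate 3. All 4 RNA polymerase loci and 8 of 26 ribosomal loci were called lower, and 4 of 15 photosystem II loci higher. In RNA polymerase and the ribosome 0 were higher and in photosystem II 0 lower. Relative to the median plastid member these counts were 3 lower in RNA polymerase, 8 lower and 1 higher in the ribosome and 8 higher in photosystem II. The rpoC2 call (-0.445; limma, adjusted p = 0.0476) was lost without flu dark replicate 3 (-0.30, adjusted p = 0.0953). Leaving out any flu light library lost it too (adjusted p from 0.0527 to 0.105), as did other omissions. Both rps7 loci, which have equal values, are among the 8 ribosomal loci. Their call (-0.455; limma, adjusted p = 0.0372) was lost without flu dark replicate 3 (-0.31, adjusted p = 0.064) and in other omissions.

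Of the 12 members called higher with light in flu, 5 were called lower with light in flu toc33, namely rpoC1, rpoB, atpB, rpl16 and rpl32, and 0 were called in the same direction. Of all genes called higher with light in flu, 8.49% were called lower and 74.1% higher in flu toc33. The rises of rpoB, atpB and rpl16 in flu are among the calls lost without replicate 3 of flu light or of flu dark. rpoC1 had an interaction of -1.10 ± 0.25 (SE; limma, adjusted p = 0.0022), rpoB of -0.57 ± 0.14 (SE; limma, adjusted p = 0.00349) and rpl16 of -0.57 ± 0.13 (SE; limma, adjusted p = 0.00167). For rpl32 it was -0.87 (limma, adjusted p = 0.000202) and for atpB -0.41 (adjusted p = 0.00695), the second not called relative to the median plastid member (adjusted p = 0.0787). On the other side psbA had an interaction of 0.38 ± 0.09 (SE; limma, adjusted p = 0.00369), rbcL of 0.37 ± 0.10 (SE; limma, adjusted p = 0.00555) and psbC of 0.49 ± 0.17 (SE; limma, adjusted p = 0.0209). Flu dark enters this test and the dark comparison of genotypes alike, so the 2 results are not independent.

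**Figure D5:**
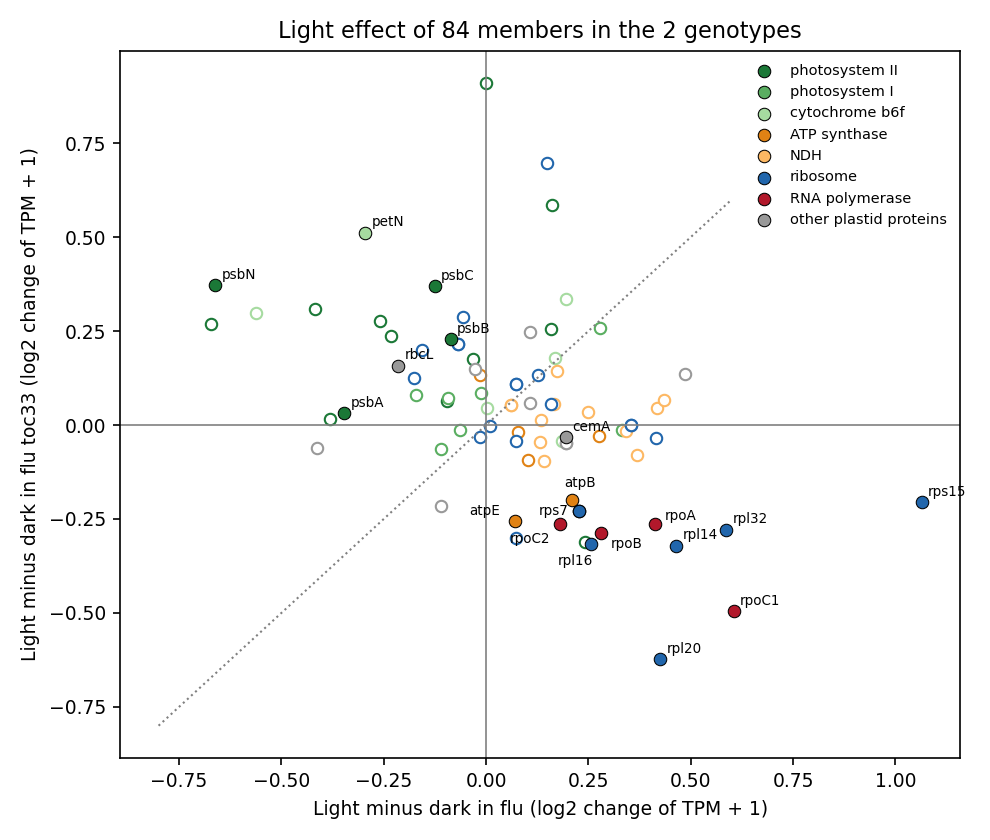
Light effect in log2(TPM + 1) of 84 members in flu toc33 (vertical) against flu (horizontal), coloured by complex. Filled points passed the interaction test and are named, rps7 standing for its 2 equal loci. RNA polymerase and ribosomal loci lie to the lower right, with rpoC1 at 0.61 in flu and -0.50 in flu toc33, and psbA, psbC, rbcL and psbN to the left of or above the dotted line of equal effects.

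Nuclear genes that serve plastid transcription give the setting, to be read beside the 20.9% of all genes called higher and 20.5% lower in the dark, and 39% and 27.9% in the light. All 6 sigma factors of PEP were higher in flu toc33 dark than in flu dark, by 0.22 to 0.52 on the log2 scale, and 4 of 6 were higher in the light. SIG5 (AT5G24120), which is known to be induced by blue light and to act on the psbD promoter, had a light effect of 3.96 ± 0.04 in flu toc33 and 4.14 ± 0.04 in flu (SE; limma, adjusted p = 6.49e-17 and 1.58e-16), beside the psbD effects of 0.25 and 0.16. Of 12 PEP-associated proteins 9 were higher in the dark and 12 in the light, with 0 lower. The phage-type polymerase RPOTP (AT2G24120) changed by -0.20 ± 0.08 in the dark and -0.07 ± 0.08 in the light (SE; limma, adjusted p = 0.0675 and 0.448). RPOTMP (AT5G15700), which serves both organelles, fell by 0.56 in the dark (limma, adjusted p = 5.22e-05). In the light its change was -0.04 (limma, adjusted p = 0.68), which did not pass.

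Of 12 nuclear photosystem I genes 10 were lower in the dark and 10 in the light, and of 9 nuclear photosystem II genes 4 and 6. In the light 1 of each list was higher. For the plastid ribosome 8 of 15 nuclear genes were higher in the dark and 10 of 15 in the light, with 0 lower. For NDH 3 of 4 nuclear genes were higher in the dark, and 2 were higher and 1 lower in the light. Of the 11 genes of plastid RNA processing and decay 9 were higher and 1 lower in each treatment. The mitochondrial genome, read by phage-type polymerases, had 1 of 38 tested loci higher and 10 lower in the dark, and 2 higher and 8 lower in the light. That is 26.3% and 21.1% lower, against 20.5% and 27.9% of all genes.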

How the data were processed

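The deposited table holds TPM values of 48359 transcripts in 12 libraries, each summing to 1000000. The submitters' processing notes name TAIR10, sleuth 0.30.0 and kallisto 0.46.2. Not given in the sources used here are the transcript set, strand setting, RNA selection and sequencing depth. Ribosomal RNA loci of the plastid were not analysed here, and 2 members are counted but not reported singly here.

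TPM were summed per locus and analysed as log2(TPM + 1) for the 19667 genes (71.1%) that 3 or more libraries held at 1 TPM or above. limma 3.58.1 in R 4.3.3 fitted the 4 group means over all 12 libraries, with two-sided moderated tests, a trend of spread with level, Benjamini-Hochberg adjustment over all genes tested and a threshold of 0.05. The model was tested on simulated data. Fold changes understate changes of genes at low TPM.

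The members, gene lists and rule for named genes were chosen with earlier results of these data known. Every value is given for the 2 most abundant members of each complex, for psbA, psbD, psbC, rbcL, accD, clpP, rpoB and psaA, and for the 4 largest called rises and falls of each comparison; other members are named to complete a complex or cluster. Names rest on TAIR nomenclature: 86 of 88 occur among RefSeq plastid genes of TAIR10.1, which also gave gene lengths. The alternatives tried were leaving out each library, fitting the compared groups alone, a robust spread, a replicate block, 3 other scalings, a filter at 5 TPM or none, and pseudocounts of 5 and 0.1 TPM. After the values were seen, a total without organelle transcripts, counting equal loci once, and leaving out flu dark replicate 3 with flu light replicate 3 were added. Tables and figures were made with matplotlib 3.10.9, numpy 2.4.6 and pandas 2.3.3 in Python 3.11.15.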

Additional observations from a re-analysis of the deposited data

Results flagged for a closer look

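The light effect of 14 named members differed between the genotypes by the interaction test of limma (adjusted p under 0.05), given here as the light effect in flu toc33 minus that in flu on the log2 scale. It was negative for 9 of them: rps15 at -1.27, rpoC1 at -1.10, rpl20 at -1.05, rpl32 at -0.87, rpl14 at -0.79, rpoA at -0.68, rpl16 at -0.57, rpoB at -0.57 and atpB at -0.41. It was positive for rbcL at 0.37, psbA at 0.38, psbC at 0.49, petN at 0.81 and psbN at 1.03. Without flu dark replicate 3 and flu light replicate 3 the value of rps15 was -0.85, adjusted p = 0.125 and that of rpl14 was -0.42, adjusted p = 0.0573, while rpoC1 kept its call at -0.79, adjusted p = 9e-05. Over the libraries left out singly, rps15 lost its call in 8 cases (adjusted p from 0.0501 to 0.0712), petN in 7 (0.0692 to 0.126), rpl14 in 6 (0.0509 to 0.0656) and psbC in 2, namely without replicate 2 of flu light (0.0579) and without replicate 2 of flu dark (0.0503).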

How the results depend on the processing

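Over 80 changes of named members under 24 alternatives, 1767 values kept direction and call, 138 kept direction and lost the call, and 0 reversed; 52 changes kept their call in all. The number of members called stayed within 1.5 times the reported 50, 44, 15, 15 and 21 (genotype in the dark, genotype in the light, light in flu, light in flu toc33, interaction) except in these cases. For light in flu toc33 it was 23 with the compared groups alone and 23 without flu dark replicate 3 and flu light replicate 3. Leaving out 1 library gave 43 to 51, 38 to 50, 7 to 20 (7 without flu light replicate 3), 11 to 21 and 13 to 22 (13 without flu toc33 light replicate 1). No shared signal of same-numbered libraries was seen: of 18 same-numbered pairs, with correlations of deviations from -0.17 to 0.13, only 1 passed 0.1. Such correlations cannot show whether same-numbered libraries were grown or processed together. With the replicate block the counts were 52, 44, 15, 17 and 18. Short loci varied most between replicates, and with depth unknown a change of theirs that did not pass is not shown to be absent.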
